A study of Mus musculus with 6 samples.

Results

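The actin cytoskeleton and integrin activation machinery was examined in bone marrow monocytes as a set of 54 genes, chosen by name for the function of their products and all found among the 49585 rows of the expression table. They comprise the actins and the proteins that turn actin over, the Arp2/3 complex, the WASP and WAVE nucleation promoters with the coronins, the small GTPases and their regulators, the formins and Ena/VASP proteins, the integrin activators and adhesion plaque proteins, myosin II with its kinases, and the capping, bundling and membrane-linking proteins. RNA-seq had been performed on 3 libraries of *Sykdel/delRosa26CreER(T2)+/+* monocytes (Sykdel/del) and 3 libraries of *Syk+/+Rosa26CreER(T2)+/+* monocytes (Syk+/+), all from mice given a high-fat diet for 8 weeks according to the submitters. Monocytes were purified from bone marrow with a kit that removes other cell types. Both genotypes carry the tamoxifen-activated Cre at the *Rosa26* locus, which is active in most tissues, so *Syk* was deleted throughout the body and not in monocytes alone. Tamoxifen was given by mouth at 200 mg/kg for 3 days at 7 to 8 weeks of age. Whether the Syk+/+ mice received it is not stated in the sources used here. The sources give the size of each group but do not state outright that every library came from its own mouse. If some did not, the spread behind the p-values is that of the libraries and may be technical.

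Monocytes crawl by pushing their front forward with a branched actin network and pulling up their rear with myosin II. The Arp2/3 complex makes the branches when it is switched on by WASP or WAVE, which in turn obey the GTPases Cdc42 and Rac. Grip comes from integrins, which become sticky from the inside of the cell when Rap1 and its effectors bring talin and kindlin to the integrin tail. The kinase encoded by *Syk* acts between immune receptors or integrins and this machinery.

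Expression was measured as a normalized read count per gene, a count multiplied by 1 factor per library and not divided by gene length. The reads assigned to genes ranged from 4168626 to 6254375 in Sykdel/del libraries and from 6805111 to 7071823 in Syk+/+ libraries. *Syk* itself was counted at 4794, 5094 and 4712 in Sykdel/del libraries, against 4463, 5527 and 5427 in Syk+/+ libraries, a log2 fold change of -0.073 (adjusted p = 1, limma). Exons that remain after a deletion can still be counted, so the level of *Syk* cannot serve to verify the labels. Why the level was similar in both genotypes was not tested. The labelled cell type was checked against its markers. Of the monocyte genes listed, 11 of 12 were in the table, none was at 0, and they summed to between 126196 and 141775 normalized counts in Sykdel/del libraries and between 117997 and 126548 in Syk+/+ libraries. Across the whole transcriptome, 52 of 14023 genes tested passed an adjusted p of 0.05 (0.371%), 49 of them lower and 3 higher in Sykdel/del. Sykdel/del replicate 1 stood apart from the other libraries of its genotype. A chi-square of the reads over genes came to 9.993 and 11.25 per degree of freedom between it and replicates 2 and 3, against 2.383 between those replicates. Syk+/+ replicate 1 stood apart to a lesser degree, with 7.46 and 5.858 against replicates 2 and 3 of its genotype and 3.662 between those. For genes with values in every library, the fold change without these libraries is given where it moved by more than 1.5 times.

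The machinery was strongly expressed, and most of its genes were found at nearly the same level in both genotypes. The 54 genes together took 4.54%, 4.87% and 4.83% of all normalized counts in Sykdel/del libraries, against 4.94%, 4.85% and 4.85% in Syk+/+ libraries. The ranges overlapped, and the lowest share was that of Sykdel/del replicate 1. *Actb*, which encodes the main non-muscle actin, alone took 1.31% ± 0.0967 in Sykdel/del and 1.35% ± 0.0533 in Syk+/+ (SD, n = 3 each). Without *Actb* the share was 3.44% ± 0.0882 in Sykdel/del and 3.53% ± 0.00563 in Syk+/+ (SD, n = 3 each). That share was 3.34%, 3.51% and 3.465% in Sykdel/del libraries, against 3.532%, 3.536% and 3.525% in Syk+/+ libraries. All Sykdel/del libraries lay below all Syk+/+ libraries on this measure, replicate 2 by a narrow margin.

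Levels of different genes were compared as normalized counts per kb of annotated exon. *Actb* stood highest at 31802 in Sykdel/del and 32709 in Syk+/+, followed by *Tmsb4x*, which encodes the monomer-binding thymosin beta-4, at 10621 in Sykdel/del and 10798 in Syk+/+. *Coro1a*, the leukocyte coronin gene, came next at 3637 in Sykdel/del and 3573 in Syk+/+. *Actg1*, the second non-muscle actin gene, reached 3281 in Sykdel/del and 3016 in Syk+/+. Among the integrin activators, the talin gene *Tln1* was the most abundant at 2116 in Sykdel/del and 2215 in Syk+/+, while the kindlin-3 gene *Fermt3* was at 397 in Sykdel/del and 386 in Syk+/+. The lowest level was that of *Rhoh*, a GTPase gene of blood cells, at 5.67 in Sykdel/del and 6.02 in Syk+/+. Above it came the ROCK kinase gene *Rock1*, at 76.8 in Sykdel/del and 84.6 in Syk+/+, and then, close together, *Rock2*, at 95.8 in Sykdel/del and 97.7 in Syk+/+, and *Rassf5*, at 89.0 in Sykdel/del and 100 in Syk+/+. In Syk+/+ libraries 19 of the 54 genes exceeded 1000 per kb, 32 lay from 100 to 1000 and 3 fell under 100. The order of the 4 highest genes was the same in both genotypes. The exon length is the union of all annotated exons, so a gene with long unused exons is understated on this scale.

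**Figure D1:**
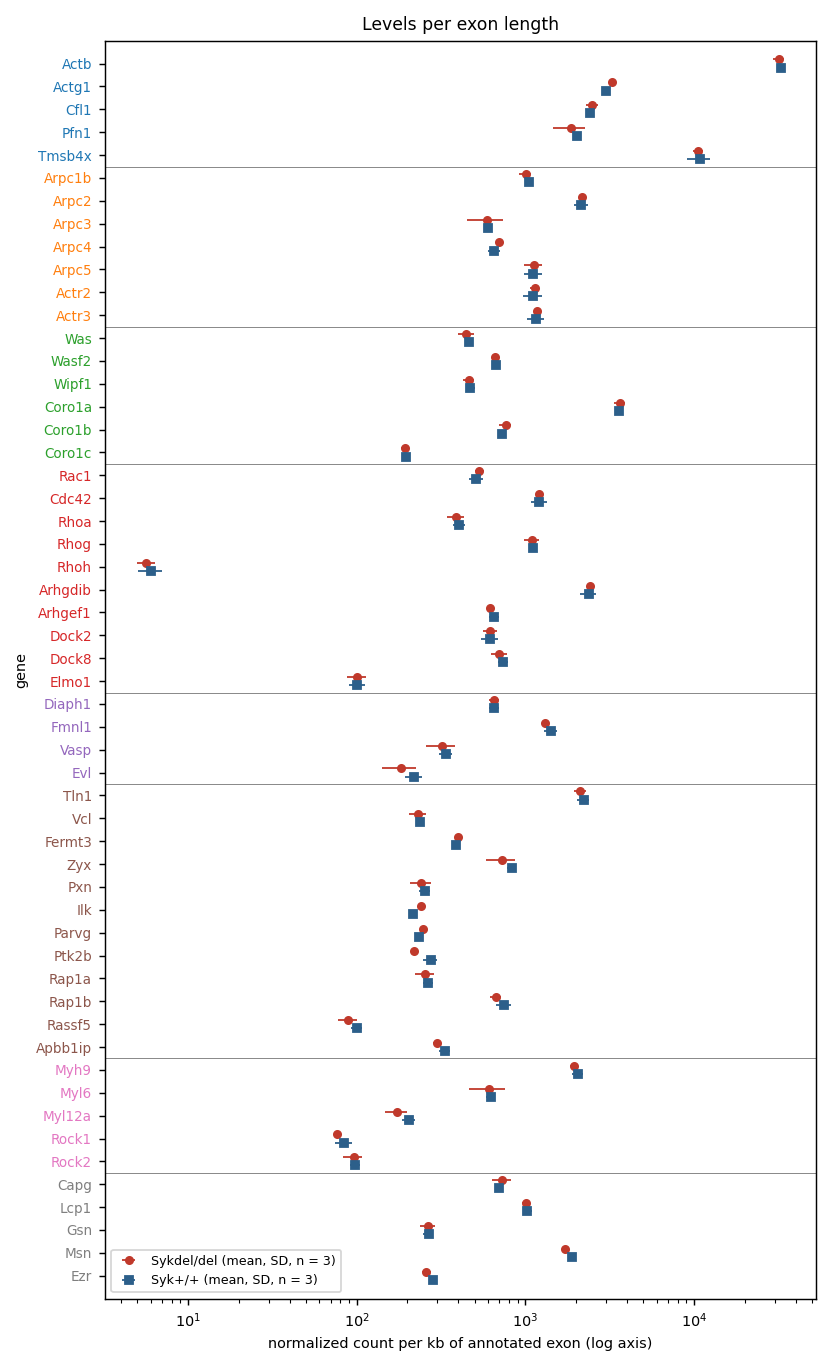
Normalized counts per kb of annotated exon (log axis) for the 54 genes, grouped by role from the actins at the top to the membrane linkers at the bottom, with Sykdel/del (circles) above Syk+/+ (squares) and bars for the SD of 3 libraries. *Actb* is highest at 31802 in Sykdel/del and 32709 in Syk+/+, *Rhoh* lowest at 5.67 in Sykdel/del and 6.02 in Syk+/+, and the genotypes lie close together in every row.

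None of the 54 genes passed the threshold (0 of 54, limma with Benjamini-Hochberg adjustment over all genes tested), where 0.371% of all genes did. All 54 had entered the test, for which a gene had to reach a normalized count of 1 in 3 libraries or more. At an unadjusted p under 0.05, 1 gene of the 54 was lower in Sykdel/del (1.85%, against 3.32% of all genes) and 0 were higher (against 1.94%). In limma-voom on the whole reads, 0 of the 54 passed the adjusted threshold as well. Every Sykdel/del library lay below every Syk+/+ library for 3 genes, *Ptk2b*, *Msn* and *Ezr* (5.56%, against 5.19% of all genes), and above for 2 genes, *Actg1* and *Ilk* (3.70%, against 4.94%). These shares are close to those over all genes.

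The test was precise enough to bound the differences. The fitted log2 fold changes of the 54 genes ran from -0.32 for *Ptk2b* to 0.15 for *Ilk*, with a median of -0.040, where the median over all genes was 0.0010. The median size of the change was 0.064, and it was 0.072 over the 7443 genes that averaged 100 normalized counts or more. The median standard error was 0.10. For 51 of the 54 genes the 95% interval lay within 0.5 on the log2 scale on either side of 0, and for all 54 within 1. The 3 genes whose interval passed 0.5 were *Ptk2b*, *Evl* and *Rhoh*. The fold change was below 0 for 37 of the 54 genes (68.5%, against 49.7% of all genes) and above 0 for 17. Without Sykdel/del replicate 1 it was below 0 for 25 of the 54 genes, with a median of 0.011.

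**Figure D2:**
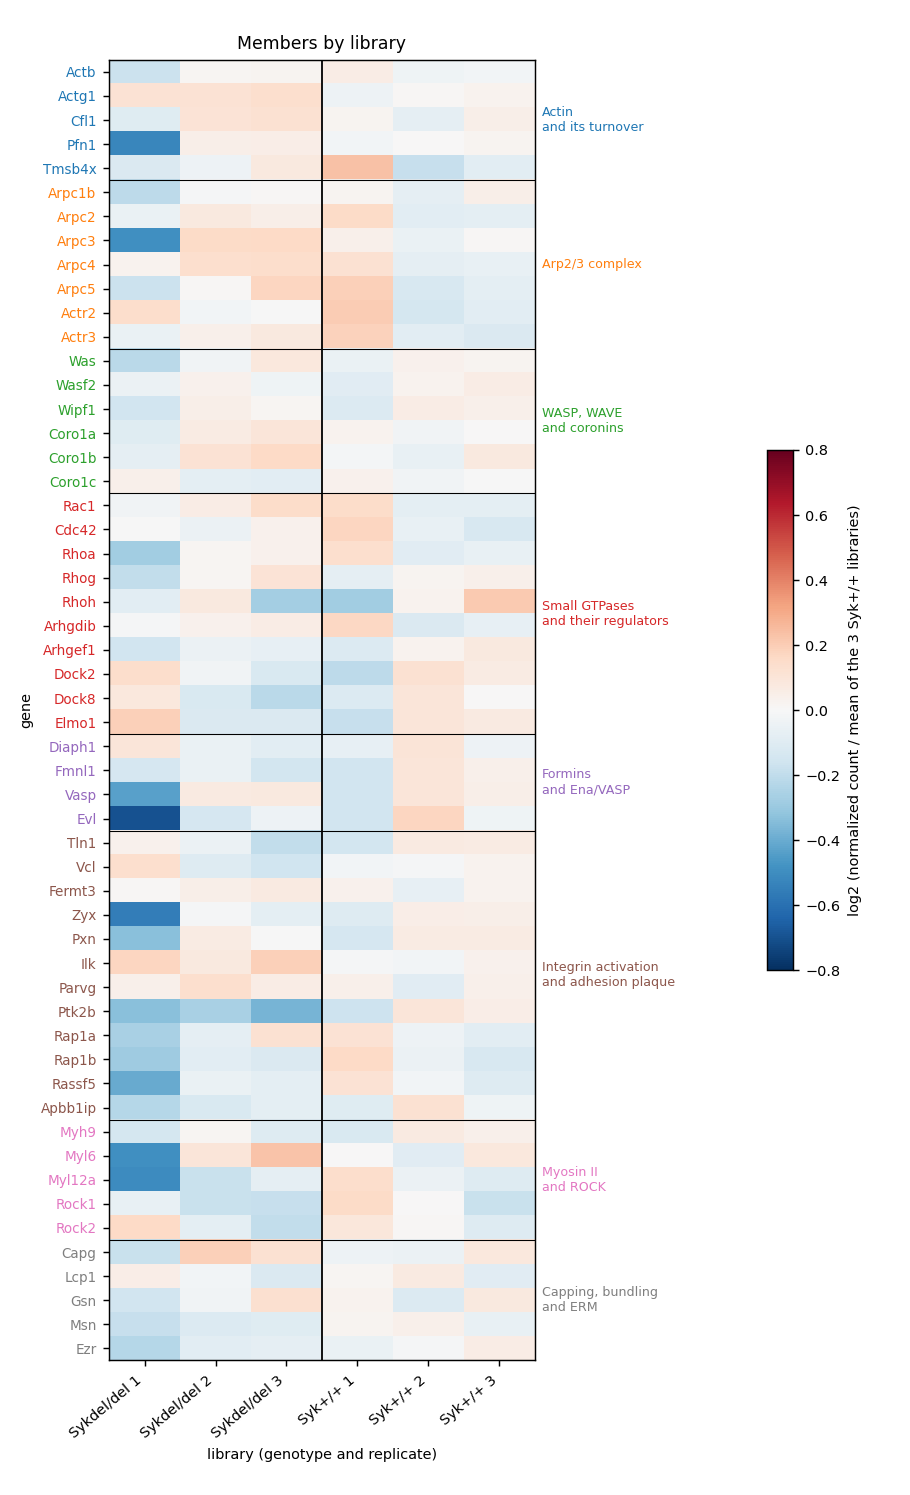
Colour gives the log2 ratio of each library to the mean of the 3 Syk+/+ libraries for the 54 genes (rows, by role), with the Sykdel/del libraries on the left and the Syk+/+ libraries on the right of the black line. Most cells are pale, and the dark blue cells fall mainly in Sykdel/del replicate 1, which holds the lowest value of 28 of the 54 genes.

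**Figure D3:**
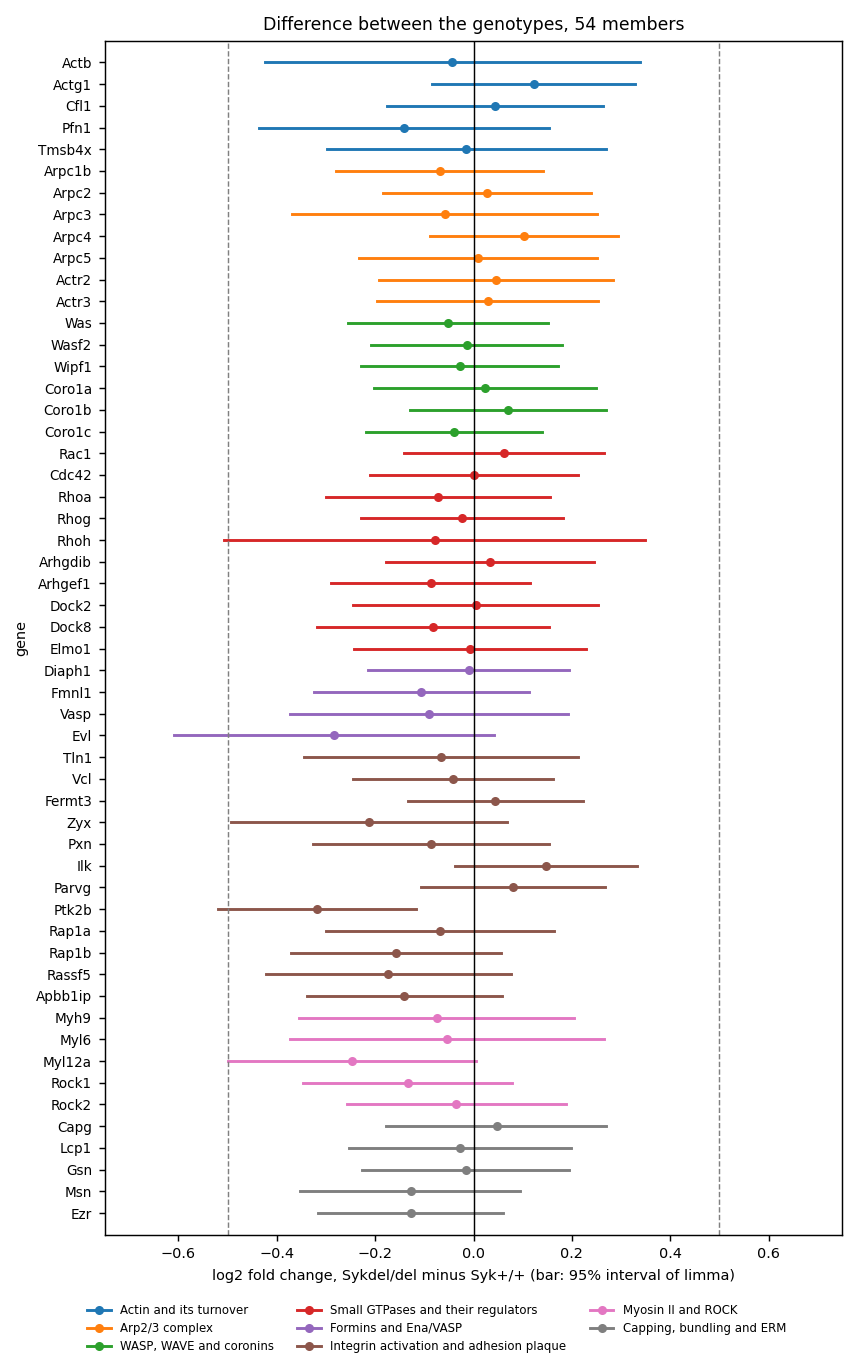
Points are limma log2 fold changes (Sykdel/del minus Syk+/+) and bars their 95% intervals for the 54 genes, coloured by role, with dashed lines at 0.5 on either side of 0. Only the interval of *Ptk2b*, -0.52 to -0.12, excludes 0, and 51 of the 54 intervals stay between the dashed lines.

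Actin and the proteins that turn it over comprised 5 genes, with a median log2 fold change of -0.015. The normalized count of *Actb* was 77866, 88697 and 89029.7 in Sykdel/del libraries, against 91201, 85506 and 86178 in Syk+/+ libraries. Sykdel/del replicate 1 was the lowest of the 6, replicates 2 and 3 lay inside the Syk+/+ range, and the fold change was -0.043 (standard error 0.18, adjusted p = 1 by limma), or 0.021 without Sykdel/del replicate 1 and -0.014 without Syk+/+ replicate 1. The normalized count of *Actg1* was 8679, 8672 and 8808 in Sykdel/del libraries, against 7794, 8075 and 8180.0 in Syk+/+ libraries. Here all Sykdel/del libraries lay above all Syk+/+ libraries, by a fold change of 0.12 (standard error 0.10, adjusted p = 1 by limma) that did not pass the test. The ratio of *Actg1* to *Actb* counts was 0.112, 0.0978 and 0.0989 in Sykdel/del libraries, against 0.0855, 0.0944 and 0.0949 in Syk+/+ libraries, so the genotypes did not overlap and the largest ratio was that of Sykdel/del replicate 1. *Cfl1*, which encodes the filament-severing cofilin, averaged 7098 ± 594 in Sykdel/del and 6870 ± 283 in Syk+/+ (SD, n = 3 each). *Pfn1*, which encodes profilin, the carrier of actin monomers to growing ends, averaged 4460 ± 950.4 in Sykdel/del and 4839 ± 76.1 in Syk+/+, and *Tmsb4x* averaged 14562 ± 985 in Sykdel/del and 14805 ± 2299 in Syk+/+. The wide spread of *Pfn1* in Sykdel/del came from replicate 1, at 3363 against 4991 and 5027 in replicates 2 and 3.

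The actin genes encode nearly the same protein, so it matters whether their reads can be told apart. *Actb* lies at chr5:142903115-142906754 and *Actg1* at chr11:120345690-120348542, both on the minus strand (GRCm38, GENCODE M21), and their coding sequences of 1128 bases differ at 128 positions. They share no stretch of 75 bases in any annotated transcript. The first 90 coding bases are shown to let the spacing of the differences be seen, with the 16 differing bases in capitals.
Actb, coding bases 1 to 90: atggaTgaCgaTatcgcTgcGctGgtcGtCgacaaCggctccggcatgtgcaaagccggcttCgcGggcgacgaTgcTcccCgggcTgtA
Actg1, coding bases 1 to 90: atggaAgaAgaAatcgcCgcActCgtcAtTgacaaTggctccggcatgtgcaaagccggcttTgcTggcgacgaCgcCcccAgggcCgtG
Copies elsewhere in the genome are closer. Of the 75-base stretches of *Actg1*, 33.5% also occur in other annotated genes, 10 in number, against 1.58% for *Actb*. Among the genes that share with *Actg1*, the pseudogene *Gm12715* shares the most stretches. How the authors counted reads that fit several genes is not given in the sources used here, so the level of *Actg1* is uncertain to that extent. The same holds for *Actr3* (17.7% shared, most often with *Gm8822*) and *Myl12a* (14.6%, with its neighbour *Myl12b*). It holds to a lesser degree for *Coro1b* (9.71%, with *Ptprcap*) and *Arpc4* (9%, with *Ttll3*), which overlap exons of these neighbours on the same strand.

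The Arp2/3 complex, which nucleates branches on existing filaments, comprised 7 genes with a median log2 fold change of 0.027. None was separated between genotypes. The largest difference was that of *Arpc4*, which encodes the subunit that holds the complex together with the product of *Arpc2*. Its normalized count was 1547, 1665 and 1669.9 in Sykdel/del libraries, against 1651, 1445 and 1457 in Syk+/+ libraries, a fold change of 0.10 (standard error 0.088, adjusted p = 1 by limma), or 0.17 without Syk+/+ replicate 1. Sykdel/del replicates 2 and 3 lay above all Syk+/+ libraries, and replicate 1 lay between them. *Actr2* and *Actr3*, which encode the actin-related subunits Arp2 and Arp3, averaged 5928 ± 372 in Sykdel/del and 5766 ± 753 in Syk+/+, and 5454 ± 249 in Sykdel/del and 5367 ± 628 in Syk+/+. *Arpc2* averaged 4422 ± 204 in Sykdel/del and 4348 ± 417 in Syk+/+. *Arpc1b*, the gene of the subunit isoform found in blood cells, averaged 5130 ± 418 in Sykdel/del and 5372 ± 229.5 in Syk+/+, *Arpc3* averaged 1635 ± 387 in Sykdel/del and 1669 ± 53.5 in Syk+/+, and *Arpc5* averaged 2545 ± 302 in Sykdel/del and 2530 ± 309 in Syk+/+ (SD, n = 3 each). *Arpc3* repeated the pattern of *Pfn1*, with 1188 in Sykdel/del replicate 1 against 1854 and 1863 in replicates 2 and 3.

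The activators of the complex and the coronins, 6 genes, lay within a narrower band, from -0.052 for *Was* to 0.070 for *Coro1b*. *Was*, which encodes the Cdc42 effector WASP, averaged 1065 ± 109.8 in Sykdel/del and 1100 ± 34.9 in Syk+/+, and *Wipf1*, which encodes its stabilizing partner WIP, averaged 2730 ± 198 in Sykdel/del and 2782 ± 174 in Syk+/+. *Wasf2*, which encodes WAVE2, the effector on the Rac side, averaged 4146 ± 131 in Sykdel/del and 4190 ± 232 in Syk+/+ (SD, n = 3 each). The coronins bind filaments and the Arp2/3 complex. *Coro1a* averaged 10121 ± 734 in Sykdel/del and 9943 ± 197 in Syk+/+, *Coro1b* 2445 ± 204 in Sykdel/del and 2325 ± 113 in Syk+/+ and *Coro1c* 1856 ± 91.7 in Sykdel/del and 1906 ± 44.4 in Syk+/+. No gene of this group was separated between genotypes, and their 95% intervals lay between -0.26 and 0.27.

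The small GTPases and their regulators, 10 genes, had a median log2 fold change of -0.015 and also held no gene that was separated between genotypes. The GTPase genes *Rac1*, *Cdc42* and *Rhoa* had fold changes of 0.062, 0.001 and -0.072, with means of 2401 ± 143 in Sykdel/del and 2304 ± 216 in Syk+/+ for *Rac1*. *Cdc42* averaged 3581 ± 104 in Sykdel/del and 3592 ± 404 in Syk+/+, and *Rhoa* averaged 2903 ± 336 in Sykdel/del and 3046 ± 260.3 in Syk+/+. *Rhog*, a Rac-like GTPase gene, averaged 1553 ± 164 in Sykdel/del and 1573 ± 64.9 in Syk+/+. *Rhoh*, whose product lacks GTPase activity, was counted at 58.7, 65.7 and 51.5 in Sykdel/del libraries, against 51.4, 63.4 and 72.0 in Syk+/+ libraries, and had the lowest level per kb of the 54 genes. *Arhgdib*, which encodes the inhibitor that keeps these GTPases in the cytosol of blood cells, averaged 4131 ± 98.6 in Sykdel/del and 4048 ± 432 in Syk+/+. The exchange factors differed as little. *Arhgef1*, which encodes an activator of RhoA, had a fold change of -0.087 (95% interval -0.29 to 0.12), *Dock2*, the gene of the main leukocyte Rac activator, 0.004 (-0.25 to 0.25), *Dock8*, the gene of a Cdc42 activator, -0.083 (-0.32 to 0.15) and *Elmo1*, the gene of a partner of the Dock proteins, -0.007 (-0.24 to 0.23).

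All 4 genes of the formins and Ena/VASP proteins, which lengthen unbranched filaments, had fold changes below 0, from -0.28 to -0.010. Under the alternatives described below, those of *Vasp* and *Diaph1* reached 0.080 and 0.043, while those of *Evl* and *Fmnl1* stayed below 0. None passed the test. *Evl*, which encodes an Ena/VASP protein of blood cells, was counted at 398, 587 and 629 in Sykdel/del libraries, against 579.8, 728 and 629 in Syk+/+ libraries. Sykdel/del replicate 1 was far below the other 5 libraries, and replicates 2 and 3 lay within the Syk+/+ range. The fold change was -0.28 (standard error 0.15, adjusted p = 0.995 by limma), and leaving out single libraries moved it between -0.41 and -0.081, the latter value without Sykdel/del replicate 1. *Vasp*, its relative, showed the same low value, 652 in Sykdel/del replicate 1 against 928 and 932 in replicates 2 and 3, and averaged 837 ± 160.4 in Sykdel/del and 882 ± 79.4 in Syk+/+. The formin gene *Fmnl1* was counted at 6290.4, 6648 and 6233 in Sykdel/del libraries, against 6210.2, 7374 and 7097 in Syk+/+ libraries. Its ranges overlapped through Syk+/+ replicate 1, with a fold change of -0.11 (standard error 0.10, adjusted p = 1 by limma), or -0.18 without that library and -0.056 without Syk+/+ replicate 2. *Diaph1*, which encodes the formin mDia1, averaged 4116 ± 278 in Sykdel/del and 4146 ± 272 in Syk+/+ (SD, n = 3 each).

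Integrin activation and the adhesion plaque formed the largest group, 12 genes with a median log2 fold change of -0.077. It held the gene with the largest difference of all 54, *Ptk2b*, which encodes the adhesion kinase Pyk2. *Ptk2b* lies at chr14:66153257-66281052 on the minus strand, and neither shares 75-base stretches with other genes nor overlaps an annotated exon of one. Its normalized count was 1606, 1691 and 1567 in Sykdel/del libraries, against 1809.5, 2169 and 2104 in Syk+/+ libraries. All 3 Sykdel/del libraries lay below all 3 Syk+/+ libraries, and the Sykdel/del libraries lay close together. The fold change was -0.32 (standard error 0.093, 95% interval -0.52 to -0.12, unadjusted p = 0.00439, adjusted p = 0.34 by limma), so it did not pass the threshold over all genes. With single libraries left out the fold change stayed between -0.40 and -0.27.

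Markers of the monocyte subsets also lay apart between the genotypes. The marker lists were chosen with earlier results of these data known, so their counts and sums may partly restate that choice. The summed markers of non-classical monocytes, the patrolling subset that carries little Ly6C, were 12661 to 15410 in Sykdel/del libraries and 19115 to 26262 in Syk+/+ libraries. Every Sykdel/del library lay below every Syk+/+ library for 12 of these 16 markers (against 5.19% of all genes). None of the 16 was at 0 in all libraries. The study's main gene, *Itgax* (CD11c), is 1 of them, with 149, 86.6 and 123 in Sykdel/del libraries, against 318, 383 and 249 in Syk+/+ libraries (log2 fold change -1.41, adjusted p = 0.00796 by limma). The summed classical markers were 156233 to 178957 in Sykdel/del libraries and 134459 to 150827 in Syk+/+ libraries. Only 2 of these 12 markers separated upwards, and most of the sum was *Fn1* (fibronectin), at 94839 ± 6818 in Sykdel/del and 81746 ± 5545 in Syk+/+ (SD, n = 3 each). Macrophage markers, 14 genes, summed to 2399 to 2886 in Sykdel/del libraries and 3187 to 3540 in Syk+/+ libraries. In bulk RNA, fewer cells of a type and less RNA per cell cannot be told apart. The part of these subsets in the difference of *Ptk2b* or of any other gene was not tested.

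**Figure D4:**
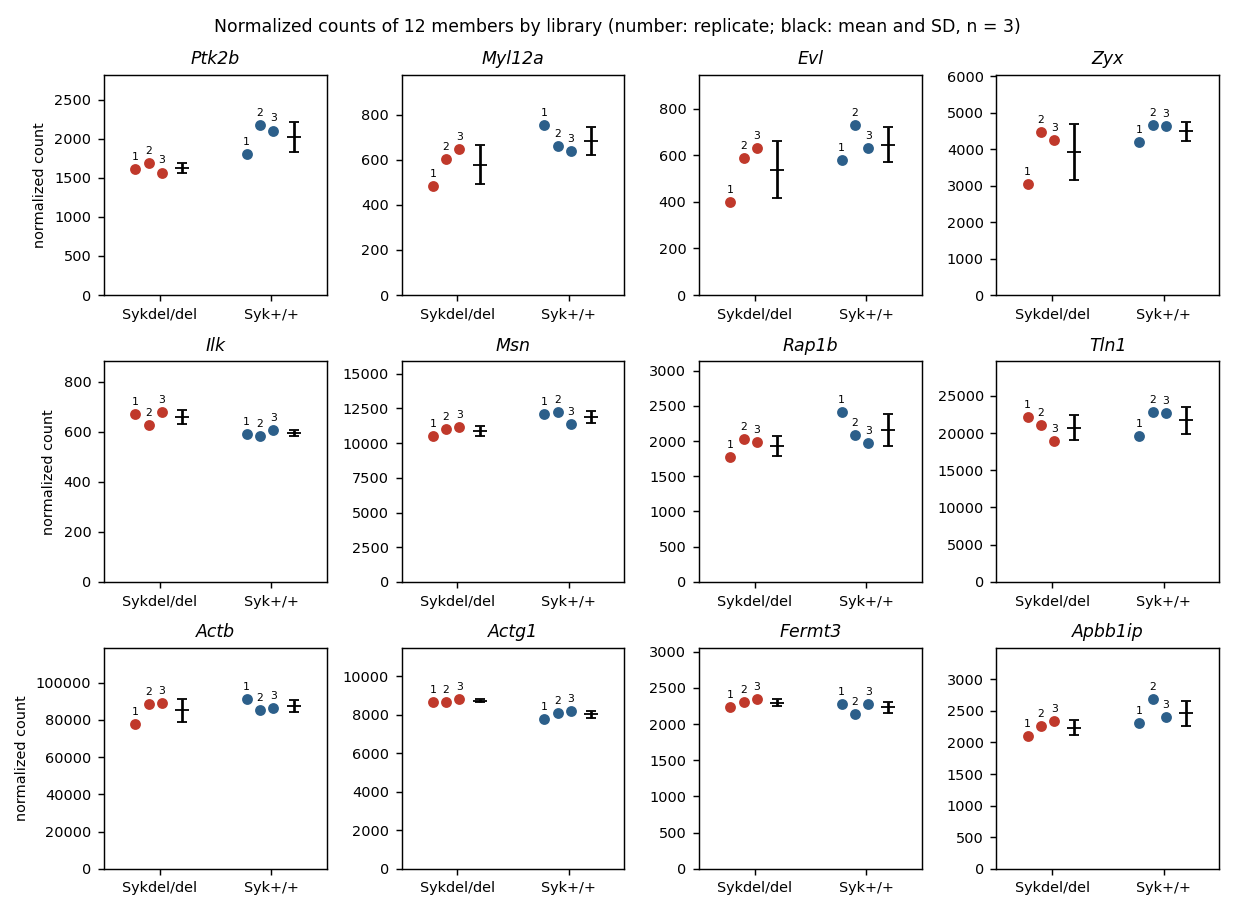
Normalized counts per library of 12 genes, Sykdel/del on the left and Syk+/+ on the right of each panel, with the replicate number above each point and the mean and SD (n = 3) in black, each axis starting at 0. *Ptk2b* and *Msn* separate downwards and *Ilk* and *Actg1* upwards, while for *Evl*, *Zyx* and *Myl12a* the lowest point is Sykdel/del replicate 1 and the other points overlap.

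The genes that carry the signal from Rap1 to talin had fold changes below 0, and none passed the test. *Rap1b*, the more abundant of the 2 Rap1 genes, was counted at 1768, 2031 and 1985 in Sykdel/del libraries, against 2408, 2086 and 1973 in Syk+/+ libraries. Syk+/+ replicate 1 was the highest and Sykdel/del replicate 1 the lowest, and the others overlapped. The fold change was -0.16 (standard error 0.10, adjusted p = 1 by limma), or -0.097 without Sykdel/del replicate 1 and -0.076 without Syk+/+ replicate 1. *Rap1a* averaged 664 ± 87.7 in Sykdel/del and 693 ± 50.2 in Syk+/+, and the ratio of *Rap1a* to *Rap1b* counts was 0.344 ± 0.0312 in Sykdel/del and 0.322 ± 0.0103 in Syk+/+ (SD, n = 3 each). The fold change of *Rap1a* was -0.069 and rose to 0.026 with a library left out. *Apbb1ip*, which encodes RIAM, the Rap1 effector that recruits talin, was counted at 2099, 2262 and 2335 in Sykdel/del libraries, against 2304, 2686 and 2402 in Syk+/+ libraries. Sykdel/del replicate 3 exceeded Syk+/+ replicate 1, so the ranges touched, and the fold change was -0.14 (standard error 0.092, adjusted p = 1 by limma), or -0.077 without Syk+/+ replicate 2. *Rassf5*, which encodes the Rap1 effector RAPL, was counted at 303, 386 and 379 in Sykdel/del libraries, against 433, 394 and 373 in Syk+/+ libraries. The Sykdel/del value of replicate 1 was again the lowest, and the fold change was -0.17 (standard error 0.12, adjusted p = 1 by limma), or -0.061 without it and -0.11 without Syk+/+ replicate 1.

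The talin and kindlin genes differed by less than the spread between libraries. *Tln1* was counted at 22208, 21056 and 18966 in Sykdel/del libraries, against 19638, 22799 and 22706 in Syk+/+ libraries, a fold change of -0.066 (standard error 0.13, 95% interval -0.34 to 0.21, adjusted p = 1 by limma). *Fermt3* was counted at 2244, 2307 and 2346 in Sykdel/del libraries, against 2284, 2136 and 2272 in Syk+/+ libraries, a fold change of 0.044 (standard error 0.082, 95% interval -0.13 to 0.22, adjusted p = 1 by limma). In both, the ranges of the genotypes overlapped. With single libraries left out, the fold change of *Tln1* lay between -0.14 and -0.003. *Vcl*, which encodes vinculin, the reinforcer of the talin link to actin, averaged 1889 ± 211 in Sykdel/del and 1936 ± 35.1 in Syk+/+, and *Pxn*, which encodes the scaffold paxillin, averaged 1966 ± 279 in Sykdel/del and 2076 ± 163 in Syk+/+ (SD, n = 3 each).

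The remaining plaque genes went in both directions. *Ilk*, which encodes the pseudokinase that joins integrin tails to parvin, was counted at 671, 627 and 677 in Sykdel/del libraries, against 591, 584 and 607 in Syk+/+ libraries. All Sykdel/del libraries lay above all Syk+/+ libraries, the largest positive fold change of the 54 genes at 0.15 (standard error 0.086, 95% interval -0.038 to 0.33, adjusted p = 1 by limma). Its partner gene *Parvg*, which encodes the parvin of blood cells, averaged 766 ± 27.3 in Sykdel/del and 725 ± 37.9 in Syk+/+ (SD, n = 3 each), with overlapping ranges. *Zyx*, which encodes zyxin, a protein of adhesions under tension, was counted at 3055, 4459.9 and 4248 in Sykdel/del libraries, against 4181, 4647 and 4633 in Syk+/+ libraries. Its fold change of -0.21 (standard error 0.13, adjusted p = 1 by limma) came down to -0.042 without Sykdel/del replicate 1. Some of these genes share ground with a neighbour on the other strand, among them *Fermt3* with *Trpt1*, *Tln1* with *Creb3*, *Ilk* with *Taf10* and *Zyx* with *Epha1*, and the strand setting of the counting is not given in the sources used here.

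Myosin II and its ROCK kinases, 5 genes, all had fold changes below 0, with a median of -0.075, and none was separated between genotypes. With a library left out, the fold change of *Myl6* rose to 0.162 and that of *Rock2* to 0.045. *Myl12a*, which encodes a regulatory light chain, was counted at 482, 605 and 649 in Sykdel/del libraries, against 753, 661 and 638 in Syk+/+ libraries. Sykdel/del replicate 1 was the lowest and Syk+/+ replicate 1 the highest, with the ranges overlapping in between. The fold change was -0.25 (standard error 0.12, unadjusted p = 0.0542, adjusted p = 0.957 by limma), or -0.12 without Sykdel/del replicate 1. *Rock1* was counted at 1472, 1351 and 1347 in Sykdel/del libraries, against 1706, 1533 and 1353 in Syk+/+ libraries, a fold change of -0.13 (standard error 0.10, adjusted p = 1 by limma), or -0.052 without Syk+/+ replicate 1 and -0.22 without Syk+/+ replicate 3. *Rock2* averaged 1331 ± 172 in Sykdel/del and 1358 ± 89.1 in Syk+/+. The heavy chain gene *Myh9* averaged 25040 ± 1406 in Sykdel/del and 26393 ± 1838 in Syk+/+, and the essential light chain gene *Myl6* averaged 1947 ± 475 in Sykdel/del and 1980 ± 121 in Syk+/+ (SD, n = 3 each). *Myl6* fell out of step with *Myh9* in single libraries, since the ratio of their counts was 0.0589, 0.0795 and 0.0943 in Sykdel/del libraries, against 0.0815, 0.0671 and 0.0773 in Syk+/+ libraries.

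Among the 5 capping, bundling and membrane-linking genes, *Msn* and *Ezr* of the ERM family were separated downwards, as were 5.19% of all genes. The other ERM gene, *Rdx*, is in the wider lists described below. It averaged 1128 ± 83.9 in Sykdel/del and 1200 ± 103 in Syk+/+ (SD, n = 3 each), with overlapping ranges. *Msn*, which encodes moesin, the main ERM protein of leukocytes, was counted at 10495, 11037 and 11137 in Sykdel/del libraries, against 12071, 12226 and 11411 in Syk+/+ libraries. The highest Sykdel/del library lay just under the lowest Syk+/+ library, and the fold change was -0.13 (standard error 0.10, adjusted p = 1 by limma). *Ezr*, which encodes ezrin, was counted at 795, 876 and 885 in Sykdel/del libraries, against 896, 927 and 969.8 in Syk+/+ libraries. The gap between the groups was again narrow, and the fold change was -0.13 (standard error 0.087, adjusted p = 1 by limma), or -0.079 without Sykdel/del replicate 1. Neither passed the test. *Capg*, which caps filament ends, averaged 1842 ± 239.7 in Sykdel/del and 1774 ± 93.2 in Syk+/+, and *Gsn*, which encodes the severing protein gelsolin, averaged 834 ± 81.9 in Sykdel/del and 842 ± 56.6 in Syk+/+. *Lcp1*, which encodes the bundling protein L-plastin, averaged 9596 ± 563 in Sykdel/del and 9779 ± 556 in Syk+/+ (SD, n = 3 each).

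Part of the spread among the 54 genes followed the length of the transcript. Each library was set against the mean of the other libraries of its genotype, and the difference was compared with the annotated exon length across genes. In Sykdel/del replicate 1, short genes were low and long genes high, with a Spearman correlation of 0.55 over the 54 genes and also 0.55 over 7292 genes that averaged 100 normalized counts or more. In Sykdel/del replicate 3 the correlation ran the other way, at -0.64 over the 54 genes and -0.51 over the 7292, and in replicate 2 it was -0.18 and -0.29. Among Syk+/+ libraries it was -0.39, 0.50 and 0.15 over the 54 genes in replicates 1, 2 and 3, and -0.19, 0.26 and -0.03 over the 7292. Genes are not independent replicates, and all values of a library share its reads, so these correlations are descriptions.

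In Sykdel/del replicate 1, 10 of the 54 genes lay more than 0.3 on the log2 scale below the other libraries of the genotype, with a median exon length of 3063.5 bp, and 1 gene lay above by more than that. The 10 were *Myl6* (-0.65), *Arpc3* (-0.65), *Evl* (-0.61), *Pfn1* (-0.57), *Vasp* (-0.51), *Zyx* (-0.51), *Myl12a* (-0.38), *Pxn* (-0.36), *Rassf5* (-0.34) and *Capg* (-0.33). The 1 above was *Elmo1* (0.30), with 12580 bp of exon. How far the difference between genotypes followed length over the 54 genes depended on the libraries used. The Spearman correlation of the fold change with exon length over the 54 genes was -0.30, against 0.00 over the 7292 genes, and -0.67 over the 54 genes without Sykdel/del replicate 1, against -0.35 over the 7292. Without Sykdel/del replicate 3 it was 0.09 over the 54 genes, against 0.25 over the 7292. Without Syk+/+ replicate 2 it was -0.04 over the 54 genes, against 0.13 over the 7292. Split at the median length of 4246.5 bp, the 27 shorter genes had a median fold change of -0.016 and the 27 longer genes -0.066. Without Sykdel/del replicate 1 these medians were 0.062 and -0.067. *Ptk2b*, with 7398 bp of exon, kept its direction in each of these fits, as did the median of the 27 longer genes, to which it belongs. The part of length in its fold change was not tested. What gave the libraries their different relation to length was not tested.

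**Figure D5:**
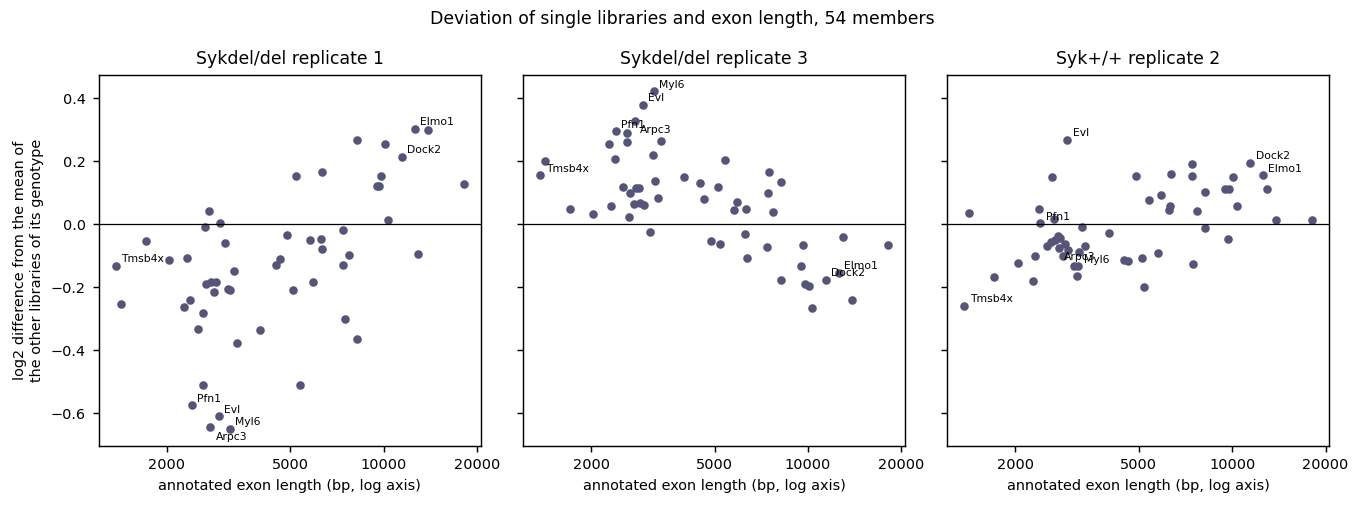
Log2 difference of a single library from the mean of the other libraries of its genotype (vertical axis) against annotated exon length in bp (log axis) for the 54 genes, in Sykdel/del replicate 1, Sykdel/del replicate 3 and Syk+/+ replicate 2. The points climb with length in Sykdel/del replicate 1 (Spearman 0.55) and Syk+/+ replicate 2 (0.50) and descend in Sykdel/del replicate 3 (-0.64).

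The promoters of the 54 genes were searched for 2 short motifs. The CArG box is the site of serum response factor, which controls actin genes in response to free actin, and GAGGAAGT is a form of the site of PU.1, a master factor of myeloid cells. Both strands were searched in windows from 250 bases before to 50 after each listed start (RefSeq, GRCm38.p6). A gene could have several starts, with 32851 windows for 27025 genes, and was counted if any window held the motif. Of the 54 genes, 46 were found in that table, and the 27025 were not limited to genes expressed here. A CArG box was present for 4 of the 46 genes (8.7%), against 1.81% of 27025 genes, and GAGGAAGT for 7 of the 46 (15.2%), against 3.69%. The windows with a CArG box are shown because they include *Actg1*, 1 of the 2 genes that separated upwards. Each is written 5′ to 3′ on the strand of its gene, with the box in capitals.
Actg1 (chr11:120348551-120348610, minus strand): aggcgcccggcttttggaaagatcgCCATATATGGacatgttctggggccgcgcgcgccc
Vcl (chr14:20929148-20929205, plus strand): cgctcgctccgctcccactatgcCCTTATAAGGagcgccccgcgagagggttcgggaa
Myl6 (chr10:128493025-128493084, minus strand): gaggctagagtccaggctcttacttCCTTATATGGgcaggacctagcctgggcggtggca
Arpc4 (chr6:113377863-113377897, plus strand): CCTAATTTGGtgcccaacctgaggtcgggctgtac
The log2 fold changes (Sykdel/del minus Syk+/+) of these genes were 0.12 for *Actg1*, -0.041 for *Vcl*, -0.054 for *Myl6* and 0.10 for *Arpc4*, so they had no common direction. The genes with GAGGAAGT were *Rassf5*, *Apbb1ip*, *Fmnl1*, *Arpc1b*, *Rhog*, *Elmo1* and *Parvg*, with fold changes of -0.17, -0.14, -0.11, -0.069, -0.023, -0.007 and 0.080 in that order. The windows of *Rassf5* and *Apbb1ip* are given as the Rap1 effectors among them, with the motif or its reverse complement in capitals.
Rassf5 (chr1:131200274-131200331, minus strand): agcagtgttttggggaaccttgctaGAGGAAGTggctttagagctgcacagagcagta
Apbb1ip (chr2:22774307-22774364, plus strand): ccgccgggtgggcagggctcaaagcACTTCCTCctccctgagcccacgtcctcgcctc
A match of letters is not evidence that a factor binds there, and none of these fold changes passed the test.

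Beyond the 54 genes, 146 other genes of the same machinery were listed, of which 144 were in the table and 140 were tested. They were chosen with earlier results of these data known, so their shares beside those of all genes are descriptions only. By limma 0 passed the adjusted threshold, as by limma-voom on the whole reads. At an unadjusted limma p under 0.05, 12 were lower (8.57%, against 3.32% of all genes) and 0 were higher (against 1.94%). Every Sykdel/del library lay below every Syk+/+ library for 14 (10%, against 5.19%) and above for 3 (2.14%, against 4.94%). By list, those lower at an unadjusted p under 0.05 numbered 4 of 30 for myosins and crosslinkers, 3 of 28 for integrin activation and adhesion, 2 of 25 for nucleation, 2 of 24 for actin turnover and 1 of 33 for small GTPase signalling.

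The smallest p among them was that of *Abi3*, which encodes a subunit of the WAVE complex. Its normalized count was 305, 282 and 325 in Sykdel/del libraries, against 416, 642 and 416 in Syk+/+ libraries, a fold change of -0.66 (standard error 0.15, adjusted p = 0.11 by limma). *Cyfip2*, which encodes another WAVE complex subunit, was counted at 719, 588 and 601 in Sykdel/del libraries, against 911, 1048 and 741 in Syk+/+ libraries, a fold change of -0.49 (adjusted p = 0.206 by limma). In both, the genotypes did not overlap and Syk+/+ replicate 2 was the highest library, which also had the highest summed non-classical markers. *Marcks*, which encodes a membrane protein that binds and crosslinks actin, was counted at 491, 597 and 595 in Sykdel/del libraries, against 742, 792 and 690.2 in Syk+/+ libraries, a fold change of -0.41 (adjusted p = 0.198 by limma). *Actn1*, the gene of an alpha-actinin, was low in all libraries, at 43.2, 30.3 and 29.7 in Sykdel/del libraries, against 58.9, 53.8 and 52.6 in Syk+/+ libraries, with a fold change of -0.68 (adjusted p = 0.514 by limma). *Fyb*, which encodes the adaptor ADAP of the Rap1 route, averaged 2490 ± 381 in Sykdel/del and 3173 ± 445 in Syk+/+, a fold change of -0.35, or -0.22 without Sykdel/del replicate 1. *Rap1gap2*, the gene of an inactivator of Rap1, averaged 1217 ± 34.9 in Sykdel/del and 1534 ± 269 in Syk+/+ with overlapping ranges, and *Ssh1*, the gene of a cofilin phosphatase, averaged 545 ± 15.2 in Sykdel/del and 648 ± 67.4 in Syk+/+ (SD, n = 3 each). *Fscn1*, the gene of the bundling protein fascin, was close to absent, with at most 3.1 in Sykdel/del libraries and 6.5 in Syk+/+ libraries. The part of the monocyte subsets in these differences was not tested.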

How the data were processed

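RNA-seq of bone marrow monocytes was performed by the authors on 3 Sykdel/del and 3 Syk+/+ libraries, made from rRNA-depleted RNA with a directional kit and sequenced from both ends. Per the labels and the methods, the reads were mapped to GRCm38/mm10 and counted per annotated gene in CLC Genomics Workbench. The sources used here give neither its version nor the annotation, the strand setting or the treatment of reads that fit several genes. The deposited values are log2(x + 1) of a normalized count x for 49585 rows. The methods name TPM, but every value came out as a whole number of reads (100% within 0.06 of a read) with 1 factor per library, from 0.9227 to 1.561 counts per read, so x is not scaled by gene length. A column of p-values, 1 per gene, from a comparison of the genotypes by the authors was not used.

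In R 4.3.3, limma 3.58.1 with a trended eBayes was fitted to the deposited log2 values of all 6 libraries with genotype as the factor, two-sided, over the 14023 genes that reached a normalized count of 1 in 3 libraries or more. Benjamini-Hochberg adjustment ran over these genes, with 0.05 as the threshold. The pseudocount of 1 makes the fold changes of low genes too small. The fit was tested on simulated data. Loci, exon lengths and shared 75-base stretches are from GENCODE M21 (GRCm38), matched by gene name. Promoters are from RefSeq (GRCm38.p6).

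The 54 genes, their roles, the wider lists and the marker lists were chosen with earlier results of these data known. Values in every library are given for the 14 genes of the 54 with the smallest p and for *Actb*, *Actg1*, *Tln1*, *Fermt3*, *Rap1b* and *Apbb1ip*, and of the wider lists the 8 genes with the smallest p are named. *Rdx* is named as well, as the ERM gene outside the 54. Single values of other genes are given where a library stood apart. The alternatives were other pseudocounts, filters and scalings, limma without the trend, limma-voom on whole reads, reads thinned to the shallowest library, a replicate block and leaving out each library in turn. Summed markers of other cell types, in normalized counts, were 2533 to 4152 in Sykdel/del and 2402 to 3628 in Syk+/+ for neutrophils, 1946 to 2119 in Sykdel/del and 1586 to 1885 in Syk+/+ for B and plasma cells, and 1352 to 1464 in Sykdel/del and 1262 to 1440 in Syk+/+ for dendritic cells. They were 430 to 682 in Sykdel/del and 446 to 1128 in Syk+/+ for erythroid cells, and 448 to 1172 in Sykdel/del and 914 to 1192 in Syk+/+ for stroma and endothelium. Platelet markers summed to 53 to 57 in Sykdel/del and 59 to 75 in Syk+/+, and T and NK cell markers to 48 to 76 in Sykdel/del and 65 to 74 in Syk+/+. Same-numbered libraries did not deviate together, with correlations of 0.03, 0.05 and -0.02, so the numbers were not taken to pair them. Some items are not reported here.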

Additional observations from a re-analysis of the deposited data

How the results depend on the processing

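The count of 0 of the 54 genes past the adjusted threshold was the same under all 17 alternatives, as was the count of 0 among the wider lists. The number lower at an unadjusted p under 0.05, 1 by the analysis reported, was 2 without a filter on low values, 2 with a replicate block and 1 to 3 with a library left out. The genes whose genotypes did not overlap numbered 4 upwards under quantile normalization and 4 under median centring, against 2, and with a library left out 3 to 10 downwards and 2 to 12 upwards, when 8.41% to 12.1% of all genes separated downwards and 7.72% to 12.4% upwards. The median fold change of the 54 genes lay between -0.044 and -0.031 under the other settings and between -0.056 and 0.011 with a library left out, the last without Sykdel/del replicate 1. The fold change of *Actb* lay between -0.076 and 0.021 with a library left out, again above 0 only without Sykdel/del replicate 1. The adjusted p of *Ptk2b* (limma) ranged from 0.178 without Syk+/+ replicate 1 to 1 without Syk+/+ replicate 2, and its fold change stayed below 0 throughout. Of the 54 genes, 24 kept the sign of their fold change under all 17 alternatives, 16 below 0 and 8 above 0, and 30 did not. Over all genes the calls numbered 52, and 53 with the replicate block, 48 at a pseudocount of 0.5, 6 without the trend, 34 by limma-voom, 0 on thinned reads (where *Ptk2b* had an unadjusted limma p of 0.00736), and from 4 to 75 with a library left out. The depth and the 3 libraries a genotype limit what can be seen. The fold change of *Ptk2b*, -0.32 with a standard error of 0.093, did not pass the adjusted threshold (limma). On thinned reads that fold change was -0.326. The part of depth or of library number in this outcome was not tested.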
